A study of Ovis aries and Mus musculus with 10 samples.

Results

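The miR-30 family was followed in mammary gland of sheep and mice before pregnancy, in gestation and in lactation. The members were the 5 mature miRNAs mmu-miR-30a, mmu-miR-30b, mmu-miR-30c, mmu-miR-30d and mmu-miR-30e, written below without the species prefix and taken by their names among the 567 mouse miRNAs of an Agilent array. A miRNA is a short RNA that pairs with messenger RNAs and lowers their translation or stability, and the seed near its 5′ end sets most of its targets. The miR-30 members share one seed and so are expected to share most targets; in other work the family has been tied to epithelial identity, to fat cell differentiation and to the mammary gland. The members come from 3 kinds of locus: miR-30b and miR-30d lie beside each other, miR-30e lies beside one of the copies of miR-30c, and miR-30a lies near the other copy of miR-30c.

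Total RNA of whole gland was hybridised to 10 arrays, 5 of sheep and 5 of CD1 mice, an outbred stock. For sheep there was 1 array in cycle (day 15), 3 in gestation (days 14, 64 and 125, here called early, middle and late) and 1 in lactation (day 60), and the breed is not given in the sources used here. The mouse arrays covered virgin gland, gestation days 10 and 17, and lactation days 2 and 10, with day 10 of gestation called early and day 17 late. No treatment was given, and neither the animals' ages nor the number of animals behind an array is stated. Each stage and day had 1 array, so no stage has a replicate. In the tests that fit species and stage class, the spread is that between days of a class and between the species in how the classes differ. In the test of whether a change differs between the species, it is that between days of a class within a species. Because whole gland was used, fewer cells of a type and less RNA per cell cannot be told apart.

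The 75th percentile of signal over the 94 miRNAs detected on all 10 arrays ranged from 246 to 1998 fluorescence units, and 125 to 208 miRNAs were detected per array. Signal was lower in lactation than before pregnancy in both species. Every level below is a log2 value relative to that percentile on the same array, so that 0 marks a signal equal to it. The mouse arrays of virgin and gestation day 10 were on slide 2 and the other 8 arrays were on slide 1. The probes were designed for mouse miRNAs, and how well they match the sheep miRNAs was not tested.

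Each member had 20 spots per array from 2 probes, or 3 for miR-30a, whose targets are given on the mouse build mm9 in the file annotation. After outlier spots were left out, the fewest remained for miR-30e in mouse, 13 at lactation day 2 and 16 at lactation day 10. The miR-30a target lies at chr1:23279118-23279134 and the miR-30c target at chr1:23298558-23298575, 19423 bases apart. For miR-30c only this copy is listed, although the same mature miRNA is also made from a copy on chromosome 4, so its signal sums both loci. The miR-30b target lies at chr15:68169031-68169047 and the miR-30d target at chr15:68172819-68172832, with 3771 bases between them. The miR-30e target lies at chr4:120445265-120445281, and 3095 bases from it lies the target of miR-30c-1*, the opposite strand of the chromosome 4 hairpin of miR-30c. The miR-30d probes were the shortest, pairing with 13 and 14 bases, against 15 to 18 for the other members. How far members with similar sequences share signal on each other's probes was not tested. The RefSeq table for sheep (ARS-UI_Ramb_v3.0) lists MIR30B and MIR30D as neighbours, and places MIR30C next to NFYC, the gene whose intron also holds the mouse miR-30e locus.

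All 5 members were detected on all 10 arrays and entered the tests over 213 miRNAs. The weakest readings were those of miR-30b in virgin mice and at mouse gestation day 10, where 1 of its 2 probes was well above background. Among the opposite strands of the hairpins, miR-30a* was detected on all 10 arrays, with its highest level, -1.71, at sheep gestation day 125 and levels of -2.89 or lower on the others, and miR-30e* on 8, on 5 of the 10 at or below the floor of -5.11. miR-30b*, miR-30c-1* and miR-30c-2*, detected on 1, 1 and 2 arrays, were at the floor on all 10. miR-384-5p, a brain miRNA with the same seed, was detected on 0 arrays.

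miR-30a, cut from a hairpin on mouse chromosome 1 that has miR-30a* as its opposite strand, had the largest range in sheep. In sheep it stood at -0.19 in cycle, at 0.12, -0.14 and 2.60 in early, middle and late gestation, and at 1.28 in lactation. In mouse it stood at 0.13 in virgin gland, at 0.13 and 0.43 in early and late gestation, and at 0.80 and 0.97 on lactation day 2 and day 10. In sheep, late gestation stood highest and lactation second, with the 3 earlier arrays within 0.31 of each other, whereas the mouse levels were similar in virgin gland and at gestation day 10 and higher at each later stage. The dimmest of the 3 probes differed in part. In sheep it stood at -2.32, -1.44 and -1.16 on the 3 earlier arrays and at -1.08 in lactation. In mouse it stood at -1.62 at gestation day 17, and at -1.55 and -1.62 on lactation day 2 and day 10. The difference from gestation day 64 to day 125 in sheep was 2.74 ± 0.020 (SE between spots), or 6.67-fold higher. It was seen in all 3 probes, at 1.53, 2.68 and 2.99. miR-30a*, cut from the same hairpin, was 2.12 and 2.38 higher in its 2 probes over the same interval. From gestation day 125 to lactation day 60, miR-30a was 1.32 lower, or 2.50-fold. Of all 213 miRNAs, 13.6% were past 2-fold higher in the first of these steps and 10.8% past 2-fold lower in the second.

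miR-30b had the largest range in mouse. In mouse it stood at -3.54 in virgin gland, at -3.34 and -1.95 in early and late gestation, and at -1.55 and -1.03 on lactation day 2 and day 10. In sheep it stood at -1.64 in cycle, at -1.82, -1.86 and -1.45 in early, middle and late gestation, and at -1.19 in lactation. In both species the lactation arrays were the highest, and in mouse each array was above the one before it. The mouse difference from gestation day 10 to day 17 was 1.38 ± 0.030 (SE between spots), or 2.61-fold higher, where 8.45% of all miRNAs were past 2-fold higher. That step also runs from slide 2 to slide 1, and with normexp background correction, an alternative treatment of dim signals, it was 0.60. Within slide 2 miR-30b was 0.20 higher at gestation day 10 than in virgin mice, and within slide 1 it was 0.41 higher at lactation day 2 than at gestation day 17 and a further 0.52 higher at lactation day 10.

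miR-30d, the neighbour of miR-30b, had a different course. In sheep it stood at -2.33 in cycle, at -1.82, -1.18 and -2.19 in early, middle and late gestation, and at -2.40 in lactation. In mouse it stood at -2.65 in virgin gland, at -2.56 and -2.46 in early and late gestation, and at -2.45 and -2.24 on lactation day 2 and day 10. Mid gestation was the highest stage in sheep, and the mouse arrays lay within a narrow range. From gestation day 64 to day 125 in sheep, miR-30d was 1.01 lower, or 2.01-fold, with 1.19 and 0.86 in its 2 probes, beside 15% of all miRNAs past 2-fold lower. Under quantile normalization that difference was 0.72 in size, under normexp 0.77 and with the brightest probe alone 0.90, so under these 3 settings it did not reach 2-fold.

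miR-30c, which adds the output of both loci, had its extremes at different stages in the species. In sheep it stood at -1.47 in cycle, at -1.96, -2.00 and -1.69 in early, middle and late gestation, and at -2.18 in lactation. In mouse it stood at -1.62 in virgin gland, at -1.28 and -0.47 in early and late gestation, and at -0.52 and -0.55 on lactation day 2 and day 10. In sheep the array in cycle was highest and lactation lowest, whereas in mouse the virgin array was lowest and the 3 arrays from gestation day 17 onward were highest and close to each other.

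miR-30e, which shares a locus with a copy of miR-30c, had the smallest spread after the fit and within sheep, while within mouse that of miR-30d was smaller. In sheep it stood at -1.71 in cycle, at -1.87, -1.91 and -1.77 in early, middle and late gestation, and at -2.13 in lactation. In mouse it stood at -2.28 in virgin gland, at -2.13 and -1.69 in early and late gestation, and at -1.78 and -1.60 on lactation day 2 and day 10. As with miR-30c, lactation was lowest in sheep and the virgin array was lowest in mouse. Over the 5 arrays of a species, the SD of miR-30e was 0.16 in sheep and 0.30 in mouse, and that of miR-30d 0.50 and 0.15. After the species and the stage class were fitted, the residual SD was 0.26 for miR-30e, 0.38 for miR-30d, 0.46 for miR-30c, 0.59 for miR-30b and 0.91 for miR-30a, beside a median of 0.36 over all miRNAs tested. Of the 40 steps between consecutive stages of the 5 members, 4 were past 2-fold, beside 202 of 1704 (11.9%) for all miRNAs.

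**Figure D1:**
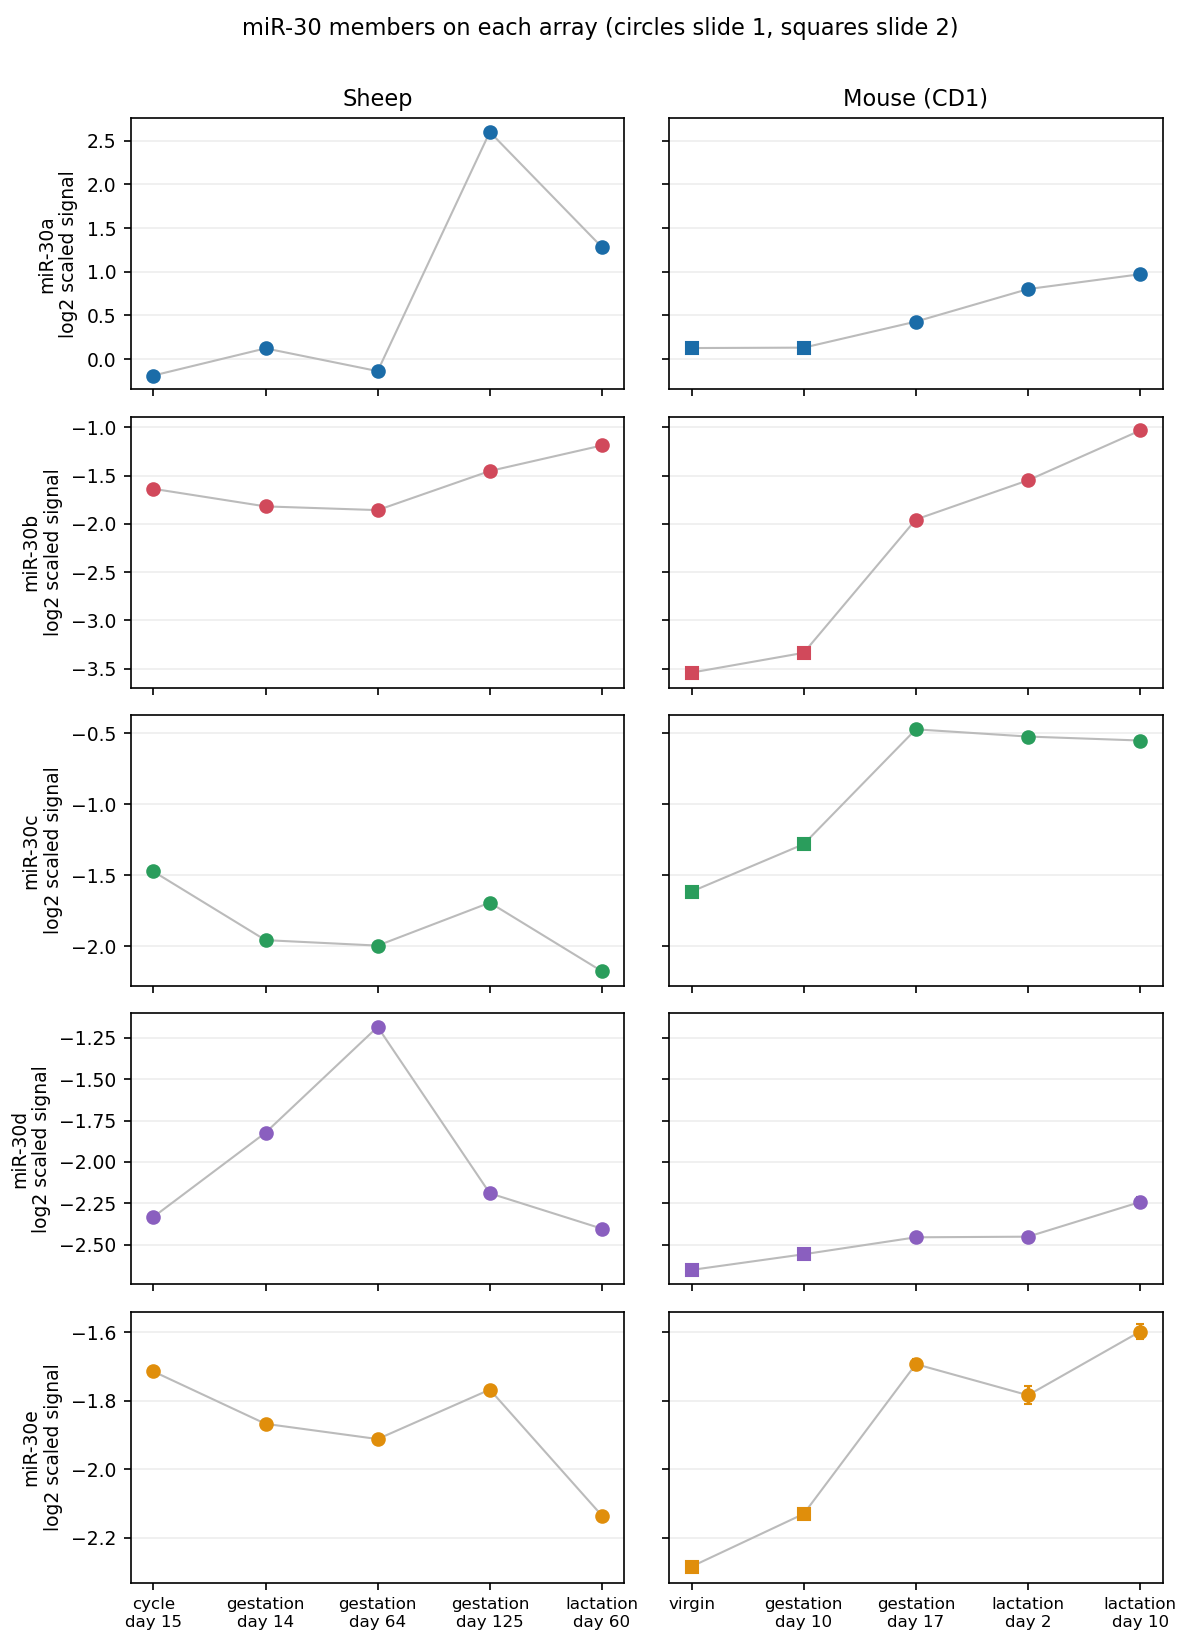
Level of each miR-30 member (rows) on each array, as log2 signal relative to the array's 75th percentile, for sheep (left) and mouse (right) in stage order; each point is 1 array, bars are the SE between spots and are mostly smaller than the points, and squares mark slide 2. miR-30a at sheep gestation day 125 (2.60) and miR-30b in mouse on slide 2 (-3.54 and -3.34) stand apart from the other stages.

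Whether the members changed with the stage of the gland was tested over both species in one limma model with species and stage class, in which the sheep array in cycle and the virgin mouse array formed the class not pregnant. Between lactation and gestation, 0 of 5 members passed an adjusted p of 0.05, where 2.82% of all 213 miRNAs passed. miR-30b had the largest difference, 1.07 ± 0.43 (SE) higher in lactation with a 95% interval from 0.04 to 2.10 and a limma adjusted p of 0.283. Its unadjusted p was 0.0438, and 1 of the 5 members and 34 of the 213 miRNAs had an unadjusted p under 0.05. The values of the other members were 0.48 ± 0.65 for miR-30a, 0.14 ± 0.34 for miR-30c, -0.21 ± 0.27 for miR-30d and 0.04 ± 0.19 for miR-30e, with limma adjusted p from 0.869 to 1. Without sheep gestation day 125 the value for miR-30a was 0.87 (limma unadjusted p 0.00418, adjusted p 0.0636), and over each array left out in turn it ran from 0.29 to 0.87. For miR-30e the 95% interval ran from -0.42 to 0.50, the narrowest of the members, and for miR-30a from -1.09 to 2.05. The members' median was 0.14, and that of all miRNAs tested was -0.0018.

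Without any scaling between arrays the median of all miRNAs was -0.67 between lactation and gestation, and miR-30b, at -0.03, lay 0.64 above it. With normexp that median was 0.65, and miR-30b, at 0.86, lay 0.22 above it, while the other 4 members, from 0.08 for miR-30d to 0.40 for miR-30a, lay below it. With slide as a term miR-30b was 0.57 higher in lactation, and on slide 1 alone it was 0.59 higher. Within each species, miR-30b was 0.52 higher in lactation in sheep and 1.36 higher in mouse, miR-30a 0.42 and 0.61. For miR-30c the sheep and mouse values were -0.29 and 0.34, for miR-30d -0.67 and 0.16, and for miR-30e -0.29 and 0.22. The difference between the species in this change, sheep minus mouse, was tested in a model with 6 means: 0 of 5 members passed, where 0.939% of all miRNAs did, and 0 of the 5 and 16 of all 213 had an unadjusted limma p under 0.05. All 5 estimates were below 0, from -0.83 for miR-30b to -0.19 for miR-30a, but with the 75th percentile taken over all miRNAs all 5 were above 0, from 0.04 to 0.69, beside a median of all miRNAs of 0.25.

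Lactation was also compared with the class not pregnant, and 0 of 5 members passed, where 3.76% of all miRNAs did. miR-30b was 1.48 ± 0.53 higher in lactation, with a 95% interval from 0.22 to 2.75 and a limma adjusted p of 0.203; its unadjusted p was 0.0276, and it was the 1 member among 40 of the 213 miRNAs under 0.05. On slide 1 alone the value was 0.50, and without the mouse virgin array, which also had high levels of striated muscle and red cell miRNAs, it was 0.81. The part of those cells was not tested. miR-30a was 1.11 ± 0.80 higher (limma adjusted p 0.52), miR-30c 0.30 ± 0.41, miR-30d 0.20 ± 0.33 and miR-30e 0.16 ± 0.23. The members' median was 0.30 beside 0 for all miRNAs. Between gestation and the class not pregnant, 0 of 5 members passed, where 0.469% of all did, 0 of the 5 and 5 of all 213 had an unadjusted limma p under 0.05, and the members' values ran from 0.12 for miR-30e to 0.63 for miR-30a, with a limma adjusted p of 1 for each.

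**Figure D2:**
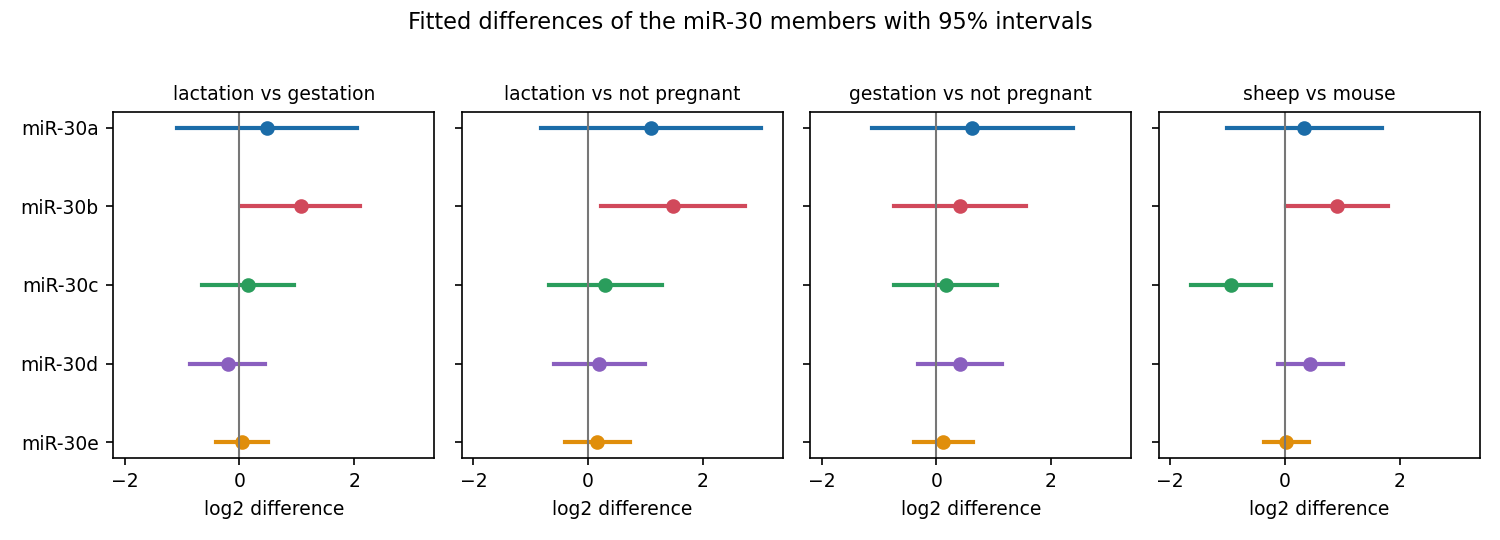
Fitted log2 differences (horizontal axis, points) with 95% intervals (lines) of the 5 miR-30 members in 4 comparisons from the limma model with species and stage class over 10 arrays; positive values are higher in the group named first. Before adjustment over the 213 miRNAs, the intervals of miR-30b lie above 0 in both lactation comparisons and in sheep vs mouse. That of miR-30c lies below 0 in sheep vs mouse.

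Sheep were compared with mouse with stage class in the model. For the 5 members, 0 passed an adjusted p of 0.05, where 21.6% of all miRNAs did, and 2 of the 5 and 76 of all 213 had an unadjusted limma p under 0.05. The estimate farthest from 0 was that of miR-30c, at -0.94 ± 0.29 with a 95% interval from -1.64 to -0.24 and a limma adjusted p of 0.0636. Over slide 1 alone it was -1.52, and with slide as a term -1.48 (limma adjusted p 0.00388). The share of all miRNAs that passed with slide as a term is not given here, so that p is not read as particular to miR-30c. Without the sheep array in cycle, or without the virgin mouse array, it was -1.23. Both leave-outs amount to the same fit for this comparison, because the array that remains is alone in the class not pregnant and is fitted exactly. Without scaling the miR-30c estimate was 0.20, where the median of all miRNAs was 0.69, so that it still lay 0.49 below that median. miR-30b was 0.91 ± 0.37 higher in sheep, with a 95% interval from 0.01 to 1.80 (limma adjusted p 0.134), and 0.18 higher on slide 1 alone. The values for miR-30a, miR-30d and miR-30e were 0.34 ± 0.57, 0.44 ± 0.24 and 0.03 ± 0.17. The 5 sheep and 5 mouse levels overlapped for all 5 members, whereas they did not overlap for 17.4% of the 213 miRNAs.

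Members of one locus were then set against each other on the same array, where scaling by 1 factor per array cancels. Probes differ in how strongly they bind, so only changes of such a difference between arrays are read. For the neighbours miR-30b and miR-30d, the difference (miR-30b minus miR-30d) was 0.70, 0.01, -0.67, 0.74 and 1.22 in sheep and -0.89, -0.78, 0.50, 0.90 and 1.21 in mouse, in stage order. It was thus lowest at mid gestation in sheep and in the early arrays in mouse, highest in lactation in both species, and spanned 2.11 on the log2 scale, or 4.30-fold. Its SD over the 10 arrays was 0.82, and 0.53 with normexp.

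For miR-30c minus miR-30e the difference was 0.24, -0.09, -0.08, 0.07 and -0.04 in sheep and 0.67, 0.85, 1.22, 1.26 and 1.05 in mouse. Within sheep it was nearly constant, with an SD of 0.14, and within mouse the SD was 0.25, beside a median SD of 0.83 in sheep and 0.80 in mouse over the 4371 pairs that the 94 widely detected miRNAs form. The sheep and mouse values did not overlap. The same held for miR-30c against miR-30b and against miR-30d, so that 3 of the 10 member pairs, each with miR-30c, did not overlap between the species, beside 26.8% of all pairs.

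For miR-30a minus miR-30c, which lie 19423 bases apart on mouse chromosome 1, the difference was 1.29, 2.08, 1.86, 4.29 and 3.46 in sheep and 1.74, 1.41, 0.90, 1.33 and 1.52 in mouse. Its SD was 1.24 in sheep and 0.31 in mouse, with the last 2 sheep arrays above the other 8. Against its own opposite strand, 24 bases away, miR-30a was steadier in sheep but not in mouse. The SD of miR-30a minus miR-30a* was 0.17 in sheep and 0.44 in mouse, and the difference ranged from 3.80 to 4.99. In mouse, the steps to lactation day 2 and then to day 10 were 0.37 and 0.17 for miR-30a. For miR-30a* they were -0.24 and -0.41. The miR-30a* signal was dim in mouse, with 1 of its 2 probes well above background in virgin gland, at gestation day 10 and at lactation day 10.

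**Figure D3:**
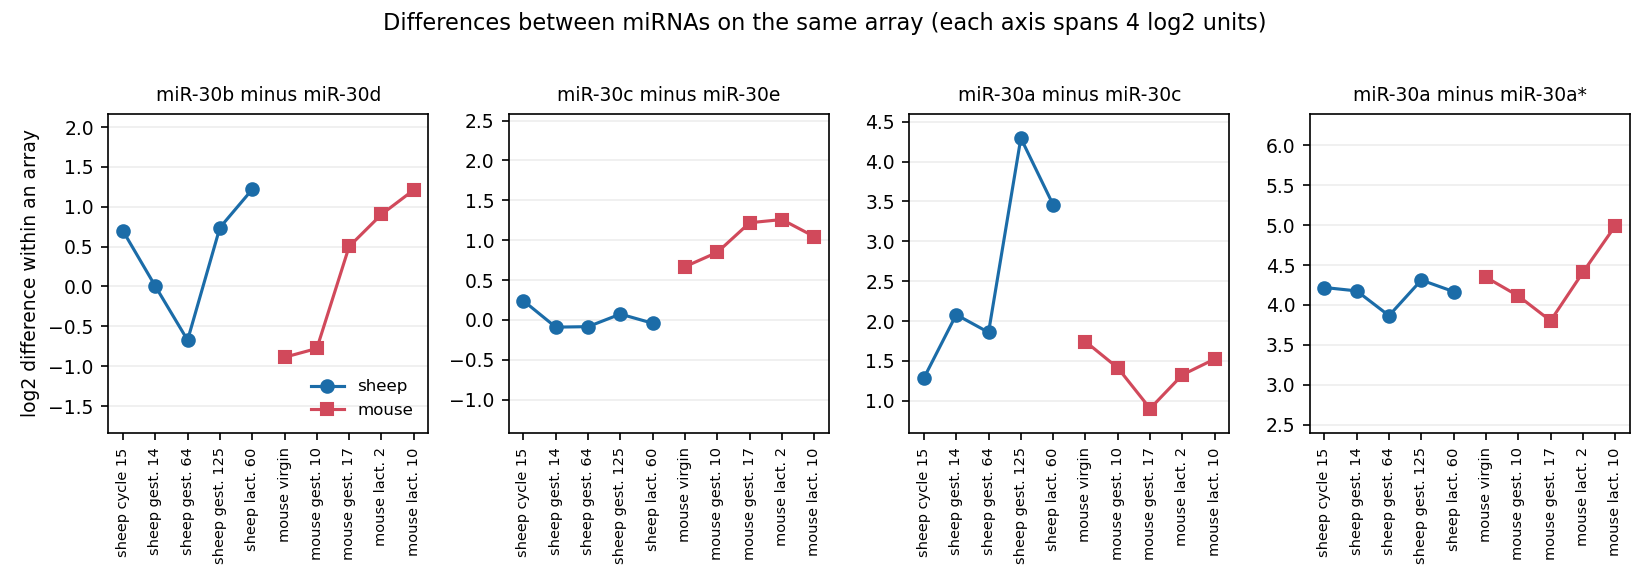
Log2 difference between 2 miRNAs on the same array (vertical axes, each spanning 4 log2 units) for 3 pairs of miR-30 members and for miR-30a with its opposite strand; each point is 1 array in stage order, circles sheep and squares mouse. miR-30c minus miR-30e is flat within sheep (SD 0.14) and lies at 0.67 or above in mouse, whereas miR-30b minus miR-30d spans 2.11.

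Levels were also compared by correlation over the 10 arrays, after each miRNA's mean within a species was taken off. These values describe 10 arrays that share slides and stages and carry no test. miR-30c and miR-30e had an r of 0.96, and 0.84 over the 8 arrays of slide 1. miR-30b had an r of 0.77 with miR-30c and 0.76 with miR-30e over the 10 arrays, but -0.21 and -0.13 over slide 1, so the likeness of miR-30b to that pair rests on the slide 2 arrays. miR-30b and miR-30d had an r of 0.08, and -0.38 on slide 1. miR-30a had an r of 0.44 with miR-30b, 0.21 with miR-30c, 0.19 with miR-30e and -0.33 with miR-30d.

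The miRNA nearest to miR-30a was miR-30a* (r 0.93), miR-30c and miR-30e were nearest to each other, and the one nearest to miR-30b was miR-141 (r 0.95, and 0.75 on slide 1), an epithelial miRNA of the miR-200 family. The one nearest to miR-30d was miR-1224 (r 0.91, and 0.96 on slide 1). miR-1224 had its highest level at sheep gestation day 64 too, at 2.01, where the other 4 sheep arrays lay between -2.42 and 0.07.

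The mean of the 5 members was -1.47, -1.47, -1.42, -0.90 and -1.32 in sheep and -1.99, -1.84, -1.23, -1.10 and -0.89 in mouse, in stage order. Among 89 other miRNAs detected on all 10 arrays, the 5 with the most similar course were miR-141 (r 0.96), miR-200a (0.93), miR-200c (0.90), miR-200b (0.90) and miR-365 (0.85), beside a median r of 0.0006. The first 4 of these are members of the miR-200 family, which maintains the epithelial state. Over slide 1 alone their r was 0.82, 0.83, 0.78 and 0.72, and that of miR-365 was 0.29, the latter falling to rank 35. Without the arrays farthest from the median, mouse lactation day 10 and mouse virgin, the r of the 5 in the same order was 0.92, 0.85, 0.81, 0.78 and 0.75 over 8 arrays.

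The tissue was checked with lists of miRNAs typical of cell types. All 6 epithelial miRNAs (miR-205, miR-429, miR-141 and the miR-200 members a, b and c) were detected on all 10 arrays. Of these, 5 had a fitted value above 0 in lactation vs gestation, whereas miR-205 was at -1.04. The mean level of the 6 was -0.57, -0.79, -1.24, 0.23 and -0.02 in sheep and -1.96, -1.14, -0.04, 0.32 and 0.55 in mouse. Relative to the species means, this list had an r of 0.93 with the mean of the miR-30 members, and 0.78 on slide 1. The list holds miR-141 and the miR-200 members a, b and c, already named above as nearest to that mean, so this r is not a separate result. By member its r was 0.93 for miR-30b, 0.77 for miR-30c, 0.72 for miR-30e, 0.65 for miR-30a and -0.15 for miR-30d, and on slide 1 it was 0.77, 0.07, -0.03, 0.88 and -0.71 in that order. On slide 1 miR-30b had an r as high with other lists: 0.93 with the red cell list, 0.83 with the adipocyte list and -0.92 with the fibroblast and smooth muscle list. For miR-30a the slide 1 values of these 3 lists were 0.37, 0.47 and -0.77. The part of epithelial content in the levels of the miR-30 members was not tested.

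Lists for other cell types gave the following values. The 5 fibroblast and smooth muscle miRNAs on the array had mean levels from -3.76 to -1.29 and an r of -0.74 with the miR-30 mean, and -0.70 on slide 1. The adipocyte list, of 5 miRNAs, had mean levels from -2.61 to -0.74 and an r of 0.84, and 0.67 on slide 1. In mouse this list was lowest in virgin gland, at -1.48, and highest at lactation day 10, at -0.74. Of its 5 miRNAs, 2 had a fitted value above 0 in lactation vs gestation. Whether the list follows fat cell content here was not tested. For leukocyte, red cell, endothelial and striated muscle lists r was -0.35, -0.20, -0.25 and -0.49, and on slide 1 -0.41, 0.43, -0.13 and -0.38. The mouse virgin array stood apart in 2 of them. Its striated muscle list was at -1.33, where the other mouse arrays lay between -5.11 and -2.85, and its red cell list was at -1.07, where they lay between -3.12 and -1.99. In addition, 1 of 5 leukocyte and 1 of 2 endothelial miRNAs were at the floor on all 10 arrays. The adipocyte and fibroblast lists share miR-143, and the part of these cell types in the miR-30 levels was not tested.

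**Figure D4:**
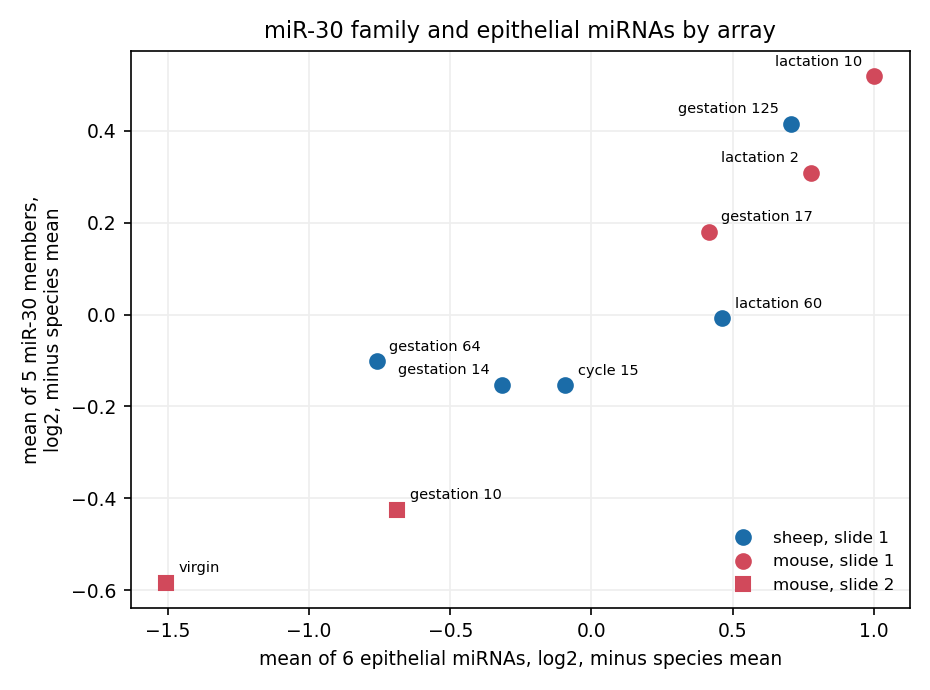
Mean of the 5 miR-30 members (vertical axis) against the mean of 6 epithelial miRNAs (horizontal axis), both in log2 after the species mean was taken off; each point is 1 array, labelled by stage and day. The r was 0.93 over 10 arrays and 0.78 over the 8 of slide 1, and the slide 2 arrays (squares) are the lowest on the vertical axis. The epithelial list includes the miR-200 family members found nearest to the miR-30 mean by correlation.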

How the data were processed

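Total RNA (100 ng, integrity number of 6 or more, per the labels) was labelled with Cy3. The deposited scanner files hold intensity values on a linear scale, background-subtracted within each array and not normalized between arrays, per the file headers. These headers give Agilent Feature Extraction 10.5.1.1, whereas the submitters' processing notes give 9.5. The value table the authors deposited, an intensity within 0.1% of the total signal per miRNA times 1 constant per array of unstated basis for 98.6 to 100% of miRNAs with a total signal above 50, with column medians from -11.6 to 0.836, was an alternative.

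Outlier spots were left out and no spot was saturated (0). Spots were averaged per probe and probes per miRNA. Each array was divided by its 75th percentile over the 94 miRNAs detected on all arrays, and values under 0.029 were set to that floor (log2 -5.11) before log2. Tests covered the 213 miRNAs with detection on 3 or more arrays and used limma 3.58.1 under R 4.3.3 (lmFit, eBayes), Benjamini-Hochberg adjustment over all 213, and a threshold of 0.05. The additive model left 6 residual degrees of freedom and the model with 6 means left 4. The tests were checked on simulated data. Steps and within-array differences carry no test. The text names the 5 members, their opposite strands, miR-384-5p, and by correlation the 5 miRNAs nearest to the members' mean and the 1 nearest to each member. The members and the lists were chosen with earlier results of these data known.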

Additional observations from a re-analysis of the deposited data

Results flagged for a closer look

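For miR-30c, miR-30d and miR-30e, the sheep arrays of a stage class were all above or all below the array not pregnant. The mouse arrays of that class all lay on the opposite side. The share of all 213 miRNAs with such a course was not counted, so the course is not read as particular to these members. These differences between the species were not tested. miR-30c was lower in gestation than in cycle in sheep, by a mean of -0.41 on the log2 scale, and higher in mouse, by 0.74. In lactation its values against the same arrays were -0.70 in sheep and 1.08 in mouse. miR-30e had values of -0.13 in sheep and 0.37 in mouse in gestation, and of -0.42 and 0.59 in lactation. miR-30d had values of -0.071 in sheep and 0.31 in mouse in lactation. Each rests on 1 array per species for the class not pregnant. The mouse virgin array was on slide 2; within that slide miR-30c was 0.33 higher and miR-30e 0.15 higher at gestation day 10.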

How the results depend on the processing

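No paired analysis was possible because no label ties an array of one stage to an array of another by animal. Over the alternatives, 452 values of single members kept their direction and their side of the threshold, 12 passed the threshold that had not, and 61 changed sign, all of values that had not passed.

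The count of members past the threshold in sheep vs mouse, 0 as reported, was 2 with the 75th percentile over all miRNAs, 4 without scaling, and 1 each on slide 1 alone, with normexp, with slide as a term and with a floor 4 times lower; when 1 array was left out it ran from 0 to 1. As reported, 21.6% of all miRNAs passed in sheep vs mouse. The shares under the other settings are not given here, so these counts are not read as a trait of the members. Steps of members past 2-fold, 4 as reported beside 11.9% of all steps, numbered 8 without scaling and 2 with normexp, with the same limit. The SD of miR-30b minus miR-30d was 0.53 with normexp. Scaling moved the median of all miRNAs: without it by -0.67, -0.78 and 0.69 in lactation vs gestation, lactation vs not pregnant and sheep vs mouse, and with normexp by 0.65, -0.65 (gestation vs not pregnant) and -0.46 (sheep vs mouse).

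The sign changes were as follows, and their cause was not tested. In lactation vs gestation without scaling: miR-30a -0.62, miR-30b -0.028, miR-30c -0.95 and miR-30e -1.06. There, miR-30d was 0.082 with normexp and 0.16 in mouse alone, and -0.34 to 0.080 with 1 array left out, above 0 without sheep lactation. miR-30c was -0.23 with slide as a term, -0.19 on slide 1, -0.29 in sheep alone and -0.0062 to 0.54 with 1 array left out, below 0 without mouse gestation day 10. miR-30e was -0.17, -0.15 and -0.29 in the same settings and -0.077 to 0.31 with 1 array left out, below 0 without mouse gestation day 10 (-0.057) or lactation day 10.

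In lactation vs not pregnant without scaling: miR-30a -0.070, miR-30c -0.87, miR-30d -0.97 and miR-30e -1.01. miR-30c was -0.36 with slide as a term, -0.62 on slide 1, -0.70 in sheep alone and -0.43 to 0.94 with 1 array left out, and miR-30e -0.21, -0.32, -0.42 and -0.20 to 0.48, both below 0 without the virgin mouse array. miR-30d was -0.071 in sheep alone.

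In gestation vs not pregnant, miR-30c was -0.049 with the percentile over all miRNAs, -0.0055 with normexp, -0.13 with slide as a term, -0.44 on slide 1, -0.41 in sheep alone and -0.50 to 0.87 with 1 array left out. miR-30e was -0.085, -0.086, -0.042, -0.17, -0.13 and -0.21 to 0.48 in that order. miR-30b was -0.090 on slide 1, -0.073 in sheep alone and -0.19 to 1.07 with 1 array left out. All 3 were below 0 without the virgin mouse array.

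In sheep vs mouse, miR-30c was 0.20 without scaling and miR-30a -0.084 to 0.55 with 1 array left out, below 0 without sheep gestation day 125. miR-30e was -0.11 with normexp, -0.010 with the brightest probe, -0.27 with slide as a term, -0.29 on slide 1, and -0.12 to 0.21 with 1 array left out, below 0 without the sheep array in cycle, the virgin mouse array or mouse gestation day 10 (-0.067).

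In the species difference of the lactation change with the percentile over all miRNAs: miR-30a 0.69, miR-30b 0.040, miR-30c 0.24, miR-30d 0.041 and miR-30e 0.37. Without scaling miR-30a was 0.38 and miR-30e 0.057, and miR-30a was -0.69 to 0.68 with 1 array left out, above 0 without sheep gestation day 125. Dim signal limits miR-30b on slide 2 and the opposite strands.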
